A study of Mus musculus with 9 samples.

Results

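The comparison between adult and young mice with normal cognition was described in the hippocampus, the region that maintains memory function. The p2 group was 3 adult male mice (mice 3, 8 and 18, aged 47 weeks, titled Old without the suffix D) and the p1 group 3 young male mice (mice 7, 19 and 20, aged 11 weeks, titled Young). All were untreated, naturally ageing mice labelled C57BL6 (C57BL/6NCrSlc in the study's methods), and the hippocampus was removed after perfusion with PBS. Adult mice had been ranked by their Y-maze and open field tests. By the paper's account, the 3 with the highest scores formed p2. The 3 with the lowest formed a p3 group (mice 2, 6 and 11, adult with cognitive decline, 47 weeks), which is given here only beside a result. Age and the selection by these tests are both part of the difference between p2 and p1. RNA of each mouse was hybridised to 1 Affymetrix Mouse Clariom S array, which reads each transcript with a probe set, and values are log2 intensities normalized by the authors. The label gives 1 array per mouse, so the spread is that between mice.

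Of 22206 probe sets, 6291 (28.3%) held measured values in the p2 mice, and only these were used. The remaining 15915 values of each p2 column lie on a straight line by row and are not measurements. By the identifiers, the measured rows are every probe set of chromosomes 1 to 4 and 910 of 1274 of chromosome 5, so a gene on any other chromosome, such as Chrna3, has no value in p2 here. They hold 5618 named genes, and 668 measured probe sets have no symbol. The correlation between any pair of the 6 arrays was 0.991 to 0.995 across these probe sets. The median SD between mice was 0.185 in p2 and 0.203 in p1. In hippocampal tissue, a higher level from more cells of a type cannot be told apart from more RNA per cell. Well-known markers were read at high levels in both groups, with the glial glutamate transporter Slc1a2 at 17.01, 16.95 and 17.04 in p2 mice 3, 8 and 18 and at 16.74, 17.02 and 17.06 in p1 mice 7, 19 and 20. Prox1, the transcription factor of dentate granule cells, was at 13.18, 12.55 and 11.78 in the p2 mice and 13.19, 12.25 and 12.01 in the p1 mice. This order of mice is kept below.

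The hippocampus is one of the few regions in which neurons are still born after birth. Neural stem cells of the dentate gyrus divide and give rise to immature granule neurons, and this production declines with age in mice. Oligodendrocytes wrap axons in myelin and are added slowly through adult life, while microglia are the resident macrophages, which carry receptors for antibodies, complement and microbial products.

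A probe set was called where the fold change exceeded 1.5 and the unadjusted p-value in limma was under 0.05, the threshold of the study. Between p2 and p1, 81 of 6291 probe sets (1.29%) were past this threshold, with 45 higher (0.715%) and 36 lower (0.572%) in p2. Of the 81, 72 had a gene symbol, and 9 exceeded a fold of 2. An unadjusted p under 0.05 was reached by 268 probe sets (4.26%), and 0 reached an adjusted p under 0.05 by limma (smallest adjusted p 0.999) or by the methods' t-test, which gave 250 at an unadjusted p under 0.05. The 3 p2 mice and the 3 p1 mice did not overlap in 548 probe sets (8.71%), among them 56 of the 81. Many genes named below were picked from the calls without overlap, so their lack of overlap was set by that choice. None of the differences below was significant after adjustment over all probe sets. A gene is said to stay called under every alternative where it kept its call at a fold of 1.5 in each other fit, scaling, level filter and mouse left out that tested it. Without moderation of the variance, a one-way model over the 3 groups kept 54 of the 81 calls and the methods' t-test 37. Among genes described below, both lost Ckap2l, Cldn11, Dlx2, Cd5l, Cd46, Chrnd, Obp2a, Bpifb9a and 4933409K07Rik, and the t-test also lost Tspan2, Sgk2, Slamf9, Tlr6, Dsn1, Lepr, Bbox1, Stoml3, Fam205a3 and Olfr342. An exact permutation test of 3 mice against 3 cannot go below p = 0.1, so none is given for single genes.

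**Figure D1:**
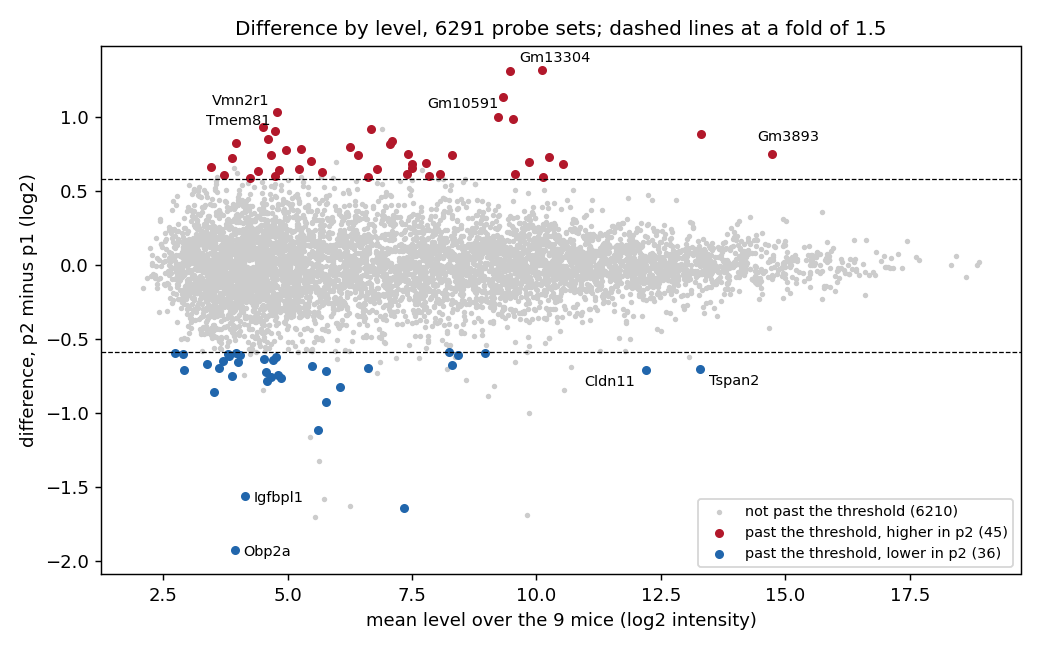
Difference between p2 and p1 mice (log2, vertical) against the mean level over the 9 mice (log2 intensity, horizontal) for the 6291 measured probe sets, with the 45 probe sets past the threshold and higher in p2 in red and the 36 lower in blue. The lower calls lie mostly on the left, at a median level of 4.63, against 6.80 for the higher calls and 6.96 for all probe sets.

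The calls differed in level by direction. The 45 higher probe sets had a median level of 6.80 and the 36 lower ones 4.63, against 6.96 for all probe sets. Below a level of 6, which 2667 of the probe sets did not reach, there were 18 higher and 27 lower calls, and at 6 or above there were 27 higher and 9 lower. The median difference over all probe sets was -0.01, with 48.1% higher and 51.0% lower in p2. Of all probe sets, 0.715% were called higher and 0.572% lower. These values are the base against which each gene group below is read, and no list was tested against it.

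The largest group of calls in one place lay on chromosome 4, around the multi-copy genes of the chemokine Ccl21 and of Fam205a. Ccl21 draws dendritic cells and lymphocytes through the receptor Ccr7, and the mouse genome holds several near-identical copies of its gene, so probes of one copy can read another. The values of these genes cannot be assigned to a single copy. Gm13304, a Ccl21-like copy, was at 9.99, 9.93 and 10.76 in the p2 mice and at 8.78, 9.02 and 8.94 in the p1 mice (difference 1.31, SE 0.28). Gm10591, another copy, was at 9.73, 9.97 and 10.37 in the p2 mice and 8.57, 8.88 and 9.21 in the p1 mice (1.14, SE 0.24). Ccl21b was at 9.74, 9.97 and 10.52 in the p2 mice and 8.75, 8.98 and 9.53 in the p1 mice (0.99, SE 0.27). In all 3 genes every p2 mouse exceeded every p1 mouse, and the call stayed under every alternative run.

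The 250 bases upstream of the annotated start are shown to illustrate how alike the copies are. They lie outside the transcript, so they do not show whether probes are shared. In the RefSeq promoter table (GRCm38.p6), the window of Gm13304 at chr4:42114537-42114786 (plus strand) and that of Gm10591 at chr4:42611873-42612122 (plus strand) hold the same base at 250 of 250 positions.
Gm13304 and Gm10591: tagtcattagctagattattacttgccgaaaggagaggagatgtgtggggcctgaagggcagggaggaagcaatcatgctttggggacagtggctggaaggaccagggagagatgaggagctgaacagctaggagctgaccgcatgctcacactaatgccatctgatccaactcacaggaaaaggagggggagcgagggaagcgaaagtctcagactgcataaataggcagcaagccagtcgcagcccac

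Identifiers placed 27 measured probe sets between Gm3893 and Gm10591 or between 4933409K07Rik and Fam205a1, a region chosen after its values were seen. Of these, 12 were called, all higher in p2, with a median difference of 0.45 over the 27. The 27 were not all separate readings. A pair without a symbol held the same value in every mouse (10.89, 11.17 and 10.82 in the p2 mice). So did another pair without a symbol (8.79, 8.25 and 8.15 in the p2 mice). Neither pair was called, and whether the 12 calls are separate readings was not tested. The region held 12 of the 45 higher calls and 12 of the 15 higher calls of chromosome 4. Outside it, 33 higher and 36 lower calls remained among 6264 probe sets (1.10% called). Gm3893 was at 15.11, 15.24 and 15.31 in the p2 mice and 14.16, 14.79 and 14.45 in the p1 mice (0.75, SE 0.24). Fam205a4 (0.68, SE 0.21), Fam205a2 (0.61, SE 0.21) and Fam205a3 (0.60, SE 0.21) were also called, and each lost its call without p2 mouse 18 (0.51, 0.49 and 0.41). Fam205a2 and Fam205a3 also lost it without p1 mouse 7 (0.51 and 0.56) or p1 mouse 20 (0.56 and 0.55). 4933409K07Rik (0.73, SE 0.30) lost its call without p2 mouse 18 (0.47) or p1 mouse 7 (0.50).

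Neighbouring genes were not all called. Ccl19, the other ligand of Ccr7, was at 4.94, 4.51 and 5.11 in the p2 mice and 4.41, 4.24 and 4.32 in the p1 mice (0.53, SE 0.17). It was higher in p2 without overlap, but short of a fold of 1.5. Gm21953, which lies among the copies, was at 13.71, 13.91 and 14.22 in the p2 mice and 13.70, 13.85 and 14.32 in the p1 mice (-0.01, SE 0.22). The p3 mice 2, 6 and 11 had 9.86, 8.90 and 9.09 for Gm13304, so only mouse 2 was near the p2 mice.

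**Figure D2:**
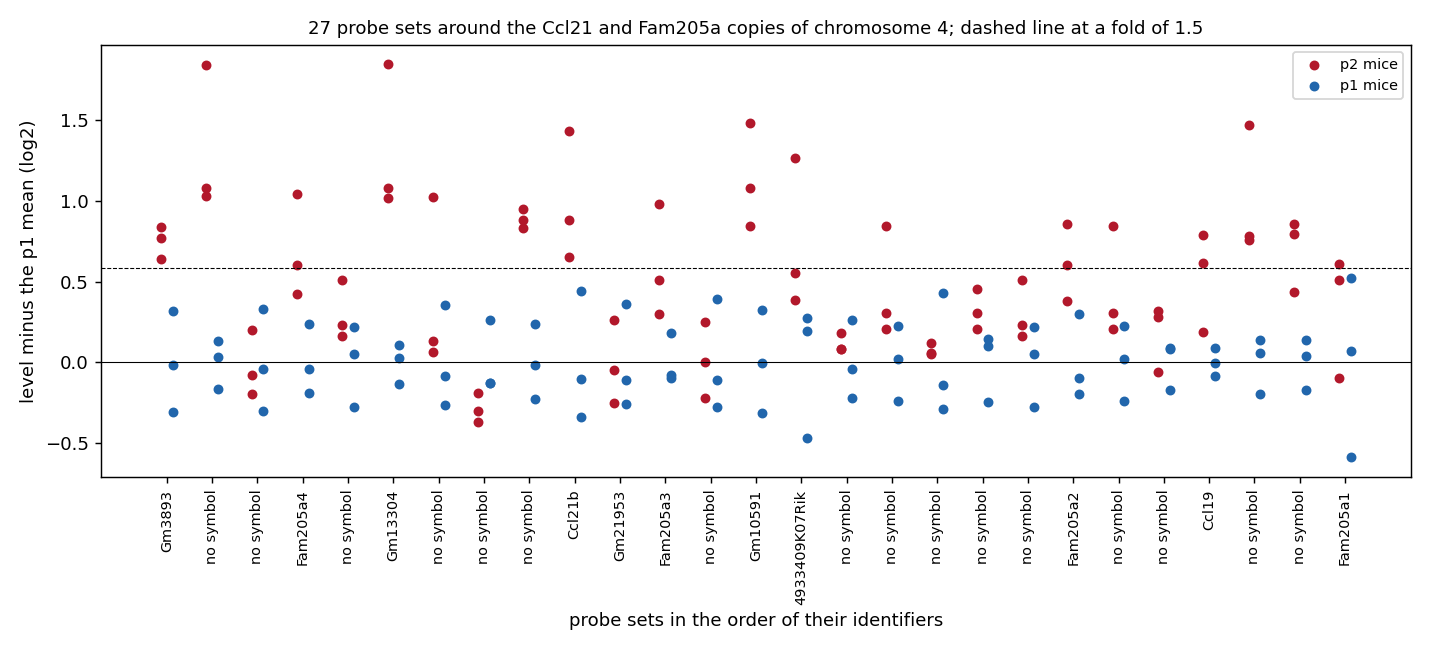
Level of each p2 mouse (red) and p1 mouse (blue) minus the p1 mean (log2, vertical) for 27 probe sets around the Ccl21 and Fam205a copies of chromosome 4, in the order of their identifiers (horizontal). The p2 points of Gm13304, Gm10591 and Ccl21b lie wholly above the p1 points, while those of Gm21953 are mixed with them.

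Genes of newborn neurons and dividing cells were among the lower calls. Igfbpl1, an insulin-like growth factor binding protein-like gene expressed by neuronal progenitors and newborn neurons, had the largest fall of a gene that stayed called under every alternative. It was at 3.06, 3.73 and 3.54 in the p2 mice and 4.70, 6.01 and 4.31 in the p1 mice (-1.56, SE 0.38), with no overlap, and at 3.75, 3.82 and 4.34 in the p3 mice. Ube2c, the ubiquitin-conjugating enzyme that works with the anaphase-promoting complex at the end of mitosis, was at 3.12, 3.38 and 3.41 in the p2 mice and 4.01, 3.95 and 4.04 in the p1 mice (-0.70, SE 0.15). The p1 mice lay close together and above every p2 mouse. Both genes were at low levels, with means of 4.14 for Igfbpl1 and 3.63 for Ube2c over the 9 mice, so the level filters did not test them.

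Ube2t, the ubiquitin-conjugating enzyme of the Fanconi anaemia repair pathway, was at 3.68, 3.78 and 3.90 in the p2 mice and 4.43, 4.40 and 4.36 in the p1 mice (-0.61, SE 0.17). Its groups did not overlap, and the call was lost without p2 mouse 3 (-0.56). Ckap2l, a mitotic spindle protein of neural progenitors, was at 5.07, 4.37 and 3.78 in the p2 mice and 4.83, 5.24 and 5.41 in the p1 mice (-0.75, SE 0.28). The groups overlapped through p2 mouse 3, and the call was lost without p1 mouse 19 or 20 (-0.71 or -0.63), or p2 mouse 8 or 18 (-0.73 or -0.44). Kif2c, a kinesin that takes microtubules apart at the centromere, was at 4.27, 4.11 and 4.57 in the p2 mice and 4.69, 4.79 and 4.83 in the p1 mice (-0.45, SE 0.15), without overlap but short of a fold of 1.5.

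Other genes of the cell cycle list moved in either direction. Of its 50 measured genes, 2 fell past the threshold (Ube2c and Ckap2l) and 0 rose. Lower calls made up 0.572% of all probe sets and 1.01% of those below a level of 6. The median level of the list was 4.63, so the share at low levels is the nearer base. The median difference was -0.03 (-0.08 to 0.02 with any one mouse left out), with 23 higher and 27 lower. In the p3 mice, of the same age as p2, the median difference from p1 was 0.02. Iqgap3, a scaffold protein of proliferating cells, was among the members with an unadjusted p under 0.05 but no call, at 4.29, 4.49 and 4.23 in the p2 mice and 4.73, 4.80 and 4.77 in the p1 mice (-0.43, SE 0.16). Outside the list, Dsn1, a kinetochore protein, rose (0.64, SE 0.22), and lost its call without p1 mouse 19 or p2 mouse 3 (0.46 each).

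The upstream windows of the called dividing-cell genes are shown for their cell cycle motifs, searched on both strands after the values were seen. Capitals mark CCAAT, the box bound by NF-Y, and TTTGAA, a form of the cell cycle homology region, with the reverse strand read as ATTGG and TTCAAA. The windows lie at chr2:164769679-164769928 (plus strand) for Ube2c, chr2:129297213-129297462 (minus strand) for Ckap2l and chr1:134962315-134962564 (plus strand) for Ube2t in GRCm38.p6 (RefSeq), each 5′ to 3′ up to the annotated start.
Ube2c: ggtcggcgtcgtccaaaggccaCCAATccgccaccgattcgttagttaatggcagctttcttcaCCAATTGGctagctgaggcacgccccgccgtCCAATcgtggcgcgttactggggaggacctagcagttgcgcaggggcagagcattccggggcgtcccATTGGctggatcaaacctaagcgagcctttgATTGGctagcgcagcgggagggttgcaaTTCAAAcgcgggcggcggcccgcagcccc
Ckap2l: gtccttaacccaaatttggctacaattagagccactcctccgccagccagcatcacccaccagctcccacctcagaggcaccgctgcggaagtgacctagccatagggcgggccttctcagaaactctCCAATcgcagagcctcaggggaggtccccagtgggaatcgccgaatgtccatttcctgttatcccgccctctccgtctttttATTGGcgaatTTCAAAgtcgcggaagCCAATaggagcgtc
Ube2t: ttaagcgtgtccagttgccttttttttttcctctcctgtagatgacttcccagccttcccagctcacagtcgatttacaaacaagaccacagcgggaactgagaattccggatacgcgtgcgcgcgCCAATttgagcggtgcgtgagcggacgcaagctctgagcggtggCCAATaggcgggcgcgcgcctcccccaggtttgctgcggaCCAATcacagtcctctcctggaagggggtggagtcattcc

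CCAAT was found 6 times in the window of Ube2c, 3 times in that of Ckap2l and 3 times in that of Ube2t, and a pair of the matches in Ube2c overlap. TTTGAA was found 1 time each in Ube2c and Ckap2l and 0 times in Ube2t. Of 32851 windows of this length in the table, 33.8% held CCAAT, 16% held TTTGAA and 5.55% held both. Of 43 measured cell cycle genes with a window in the table, some with several, 29 held CCAAT, 12 held TTTGAA and 9 held both. The windows of Kif2c and Iqgap3 held 0 CCAAT and 1 TTTGAA each. A match is a description of the letters only.

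Among 22 measured genes of immature neurons and neurogenesis, 1 fell (Igfbpl1), where 0.572% of all probe sets did. Of these 22, 0 rose and 17 were lower in p2, with a median difference of -0.15. With any one mouse left out, this median was -0.18 to -0.07, the smallest without p2 mouse 3. In the p3 mice, of the same age as p2, the median difference from p1 was -0.015. Marcksl1, an actin-regulating protein of growing neurites, was at 6.19, 6.10 and 5.96 in the p2 mice and 6.68, 6.39 and 6.72 in the p1 mice (-0.51, SE 0.15), without overlap and short of the fold. Frzb, a secreted Wnt antagonist, went the other way, at 9.67, 9.95 and 9.84 in the p2 mice and 8.97, 9.47 and 9.50 in the p1 mice (0.51, SE 0.21). Dlx2, the homeobox factor of GABAergic interneuron precursors, fell (-0.70, SE 0.30), but its groups overlapped and the call was lost without p1 mouse 19 (-0.36), p2 mouse 3 (-0.46) or p1 mouse 7 (-0.76). It was the 1 called gene of 14 interneuron genes (0.572% of all probe sets were called lower). Of these 14, 12 were lower, with a median of -0.19 that was -0.005 without p1 mouse 19 and -0.29 without p1 mouse 7. Gad1, the enzyme that makes GABA, was at 11.59, 11.68 and 11.90 in the p2 mice and 11.97, 11.89 and 11.42 in the p1 mice (-0.04, SE 0.17). Prom1, prominin 1, which marks neural stem and ependymal cells, fell to 8.35, 8.22 and 8.23 in the p2 mice, against 8.92, 8.66 and 9.04 in the p1 mice (-0.61, SE 0.17). Its call was lost without p1 mouse 7 (-0.58), p1 mouse 20 (-0.52) or p2 mouse 8 (-0.58).

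**Figure D3:**
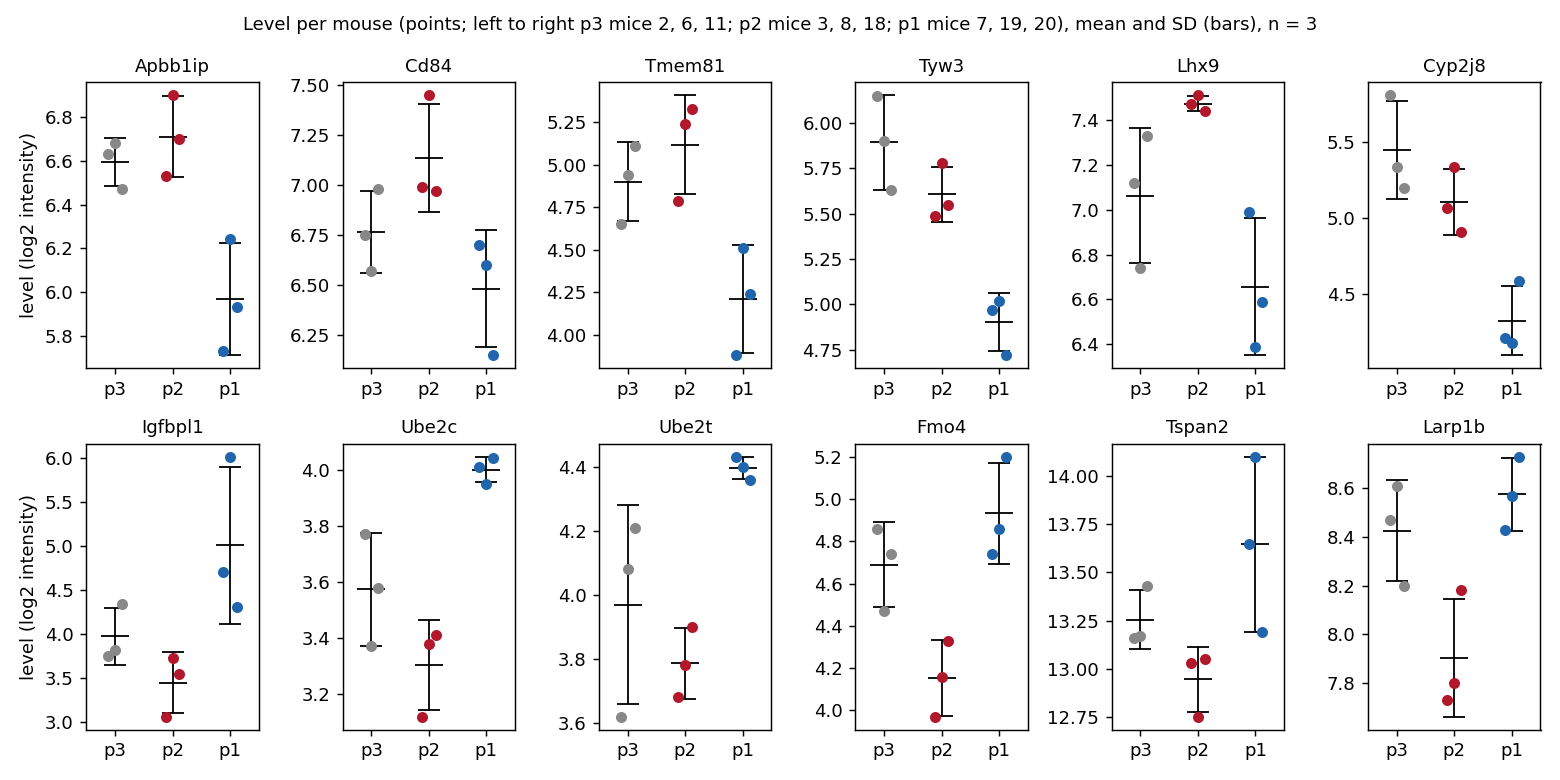
Level (log2 intensity, vertical) of 12 genes in each mouse of p3 (grey), p2 (red) and p1 (blue), with the mean and SD of 3 mice as bars. The upper row holds 6 genes that were higher in p2 than in p1 and the lower row 6 that were lower. These genes were taken from the calls without overlap, so the separation of p2 and p1 points was set by that choice.

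Microglial genes leaned towards p2. Of 27 measured, 3 rose (0.715% of all probe sets did), 0 fell and 20 were higher, with a median difference of 0.19. The median was 0.12 without p1 mouse 20 and 0.30 without p1 mouse 7, and between these without any other single mouse. Apbb1ip, the adaptor RIAM that links Rap1 to integrin activation, was at 6.53, 6.90 and 6.70 in the p2 mice and 5.73, 6.24 and 5.93 in the p1 mice (0.74, SE 0.17), with no overlap. It stayed called under every alternative that tested it, but its mean level of 6.42 kept it out of the filter at the median level. The p3 mice had 6.63, 6.68 and 6.47, close to the p2 mice.

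Cd84, a receptor of the SLAM family on myeloid cells, was at 6.99, 7.45 and 6.97 in the p2 mice and 6.70, 6.60 and 6.15 in the p1 mice (0.65, SE 0.20), and lost its call without p1 mouse 20 (0.49) or p2 mouse 8 (0.50). Slamf9, of the same family, was at 4.63, 4.67 and 4.25 in the p2 mice and 3.84, 4.37 and 3.57 in the p1 mice (0.59, SE 0.21). Its groups overlapped, and the call was lost without p1 mouse 7 or 20 (0.55 or 0.41), or p2 mouse 3 or 8 (0.53 or 0.51).

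Short of the fold, C1qc, which encodes a chain of the complement protein C1q, was at 7.72, 7.67 and 7.84 in the p2 mice and 7.25, 6.88 and 7.53 in the p1 mice (0.52, SE 0.17). C1qb differed by 0.39 (SE 0.18) and C1qa by 0.18 (SE 0.20). Fcgr3, an activating antibody receptor, was at 9.64, 9.73 and 9.59 in the p2 mice and 9.44, 8.93 and 9.28 in the p1 mice (0.44, SE 0.18). P2ry12, the purine receptor that defines resident microglia, did not move with them, at 12.88, 13.03 and 12.96 in the p2 mice and 13.30, 12.80 and 12.93 in the p1 mice (-0.05, SE 0.15). Of 11 markers of other brain macrophages and blood leukocytes, 0 were called and 3 were higher.

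Outside this list, and named after their values were seen, Tlr6, which recognises microbial lipopeptides together with Tlr2, rose to 4.42, 4.19 and 4.74 in the p2 mice, against 3.58, 4.14 and 3.15 in the p1 mice (0.83, SE 0.26). Its groups did not overlap and it stayed called without any single mouse, but not by the methods' t-test. Cd5l, a secreted macrophage protein, rose (0.74, SE 0.30) with overlap, and lost its call without p1 mouse 19 or 20 (0.56 or 0.71), or p2 mouse 3 or 8 (0.67 or 0.56).

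Myelin genes leaned the other way. Of 16 measured genes of oligodendrocytes and myelin, 3 fell (0.572% of all probe sets did), 0 rose and 12 were lower. Their median difference was -0.17. The median was -0.10 without p1 mouse 19, -0.11 without p1 mouse 7 and -0.39 without p1 mouse 20. Tspan2, a tetraspanin of myelinating oligodendrocytes, was at 13.03, 12.75 and 13.05 in the p2 mice and 13.65, 14.10 and 13.19 in the p1 mice (-0.70, SE 0.22), and lost its call without p1 mouse 19 (-0.48). Cldn11, the claudin of myelin tight junctions, was at 11.97, 11.83 and 11.83 in the p2 mice and 12.85, 13.04 and 11.87 in the p1 mice (-0.71, SE 0.27). The p1 mouse 20 lay among the p2 mice, and the call was lost without p1 mouse 19 or 7 (-0.48 or -0.58), or p2 mouse 8 or 18 (-0.69 each), while the difference was -1.07 without p1 mouse 20.

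Sgk2, a kinase related to the glucocorticoid-induced Sgk1, was at 3.18, 3.78 and 3.90 in the p2 mice and 4.20, 4.10 and 4.35 in the p1 mice (-0.60, SE 0.20). Its call was lost without p1 mouse 20 (-0.53) or p2 mouse 3 (-0.38). Ugt8a, the enzyme that makes the myelin lipid galactosylceramide, was at 11.53, 11.58 and 11.28 in the p2 mice and 11.79, 12.40 and 11.67 in the p1 mice (-0.49, SE 0.20). Mal, a proteolipid of compact myelin, was at 14.64, 14.36 and 14.42 in the p2 mice and 15.03, 15.09 and 14.58 in the p1 mice (-0.43, SE 0.18). In Tspan2, Cldn11, Ugt8a and Mal, p1 mouse 19 was the highest of the 6 mice and p1 mouse 20 the lowest of the p1 mice. Over the list, p1 mice 7 and 19 stood 0.29 and 0.30 above the mean of the other mice in the median, and p1 mouse 20 stood 0.19 below it. Of 11 measured genes of oligodendrocyte precursors, 0 were called and 9 were lower, with a median difference of -0.14 that was -0.07 without p2 mouse 8 and -0.21 without p1 mouse 7.

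**Figure D4:**
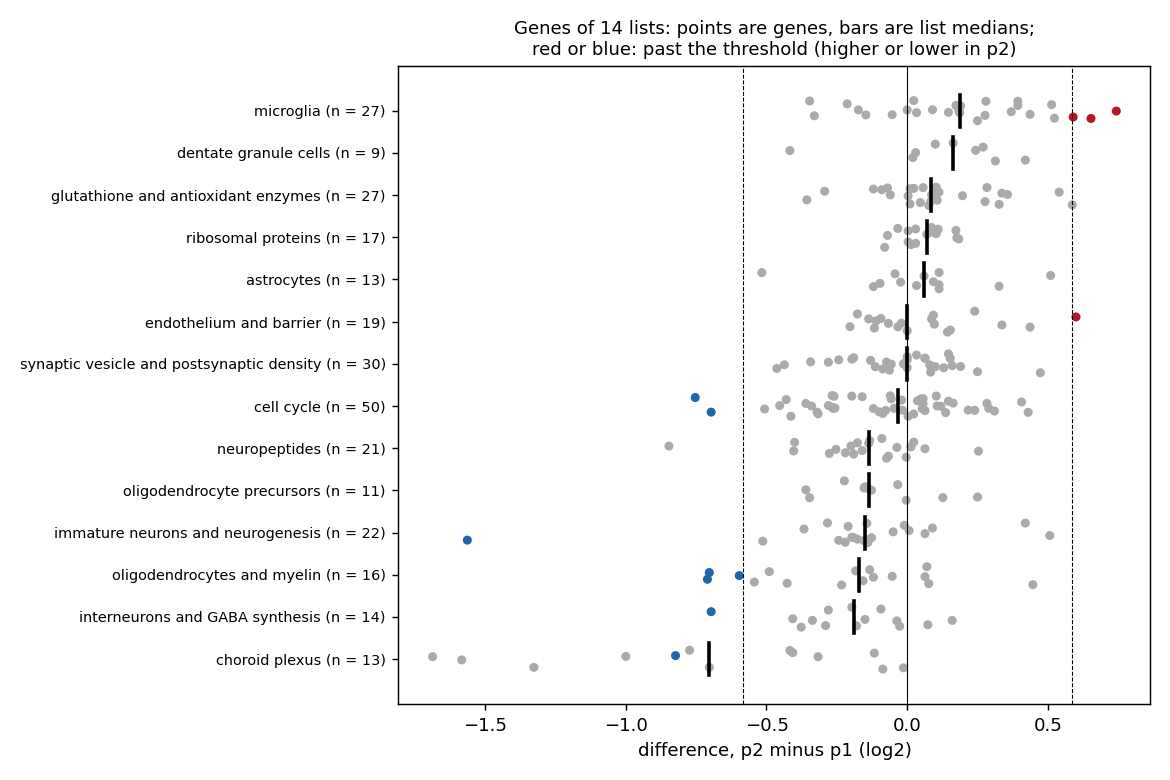
Difference between p2 and p1 mice (log2, horizontal) for the measured genes of 14 lists (vertical, with the number of genes), where points are genes, black bars are medians, red and blue points are genes past the threshold, and dashed lines mark a fold of 1.5. The medians run between 0.19 for microglia and -0.70 for the choroid plexus.

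Choroid plexus genes, of the epithelium that secretes cerebrospinal fluid and lies against the hippocampus, were all lower in p2, but this rested on 1 young mouse. The 13 measured genes had a median difference of -0.70, and the median was 0.05 without p1 mouse 19. It stayed between -1.21 (without p1 mouse 7) and -0.48 without any other single mouse. Kcnj13, a potassium channel of this epithelium, was at 10.20, 6.79 and 9.55 in the p2 mice and 8.30, 14.88 and 8.42 in the p1 mice (-1.69, SE 2.11). Igfbp2, a binding protein of insulin-like growth factors made by choroid plexus and meninges, was at 9.34, 8.96 and 9.65 in the p2 mice and 9.47, 11.90 and 9.58 in the p1 mice (-1.0, SE 0.73).

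Over the list, p1 mouse 19 stood 2.08 above the other mice in the median and p3 mouse 11 stood 1.92 above them, while the p2 mice lay at -0.20, -0.86 and -0.32. Only Lepr, the leptin receptor, was called (-0.82, SE 0.28), and it was lost without p1 mouse 19 (-0.55). Obp2a, an odorant-binding protein, was at 3.35, 2.81 and 3.44 in the p2 mice and 3.71, 7.34 and 4.33 in the p1 mice (-1.93, SE 0.72), and the difference was -0.82 without p1 mouse 19, still a call. The call was lost without p2 mouse 8 (-1.73). Bpifb9a (-1.12, SE 0.47) was at 7.65 in p1 mouse 19, and lost its call without that mouse (-0.42), without p2 mouse 3 (-1.0) or without p2 mouse 8 (-1.05). Neither Obp2a nor Bpifb9a is on the choroid plexus list. In p3 mice 2, 6 and 11, Obp2a was at 3.31, 3.70 and 3.41 and Bpifb9a at 5.38, 5.31 and 5.53. Neither gene was raised in p3 mouse 11 as the list was. Whether the higher choroid plexus gene levels of p1 mouse 19 bear on other lower calls was not tested. Without this mouse, 23 of the 81 calls were lost, against 23 to 29 without any other single mouse, and 14 of the 36 lower calls were lost, against 10 to 16.

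**Figure D5:**
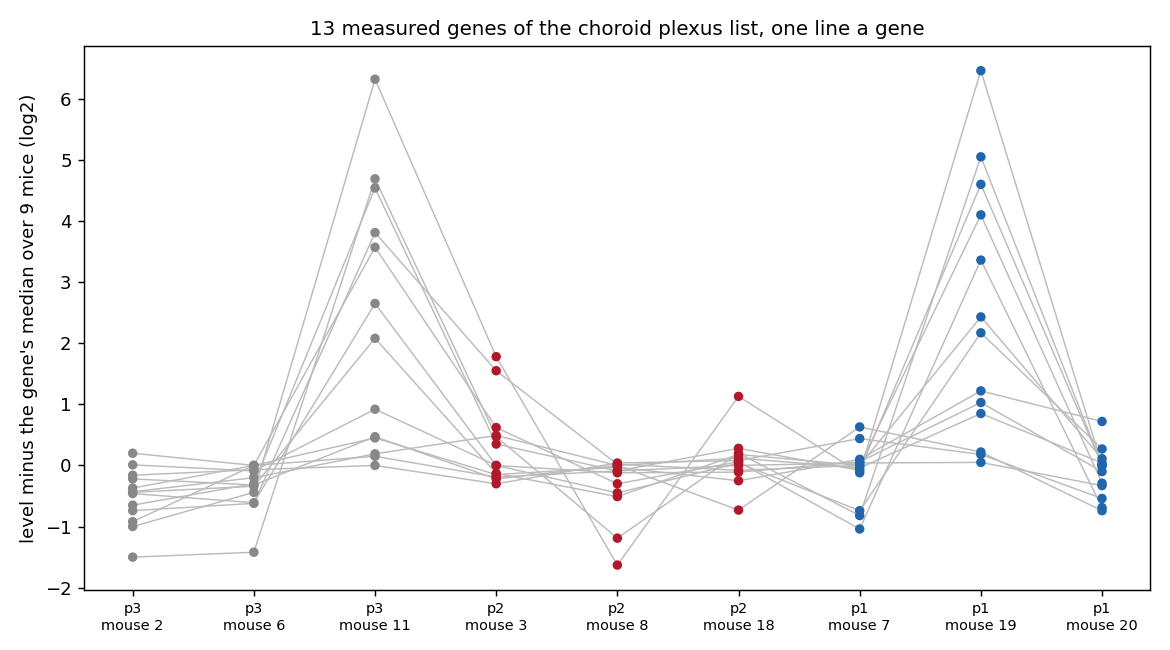
Level of each of the 13 measured choroid plexus genes minus its median over 9 mice (log2, vertical) in the p3 (grey), p2 (red) and p1 (blue) mice (horizontal), with a line for each gene. Most lines peak in p1 mouse 19 and p3 mouse 11.

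Cytokine, complement, insulin, cytoskeleton and hormone genes held 2 calls among 185 genes (1.08%), near the share of all probe sets (1.29%). These lists follow the pathways that the study names for these samples, so they are not independent evidence. Of 50 measured cytokines and their receptors, 0 were called, with a median difference of 0.01 (-0.07 to 0.04 with any one mouse left out). Of 22 complement genes, 1 rose, Cd46, of the complement regulator family, at 8.41, 7.72 and 8.39 in the p2 mice and 7.24, 8.07 and 7.37 in the p1 mice (0.61, SE 0.25). The groups overlapped, and the call was lost without p1 mouse 7 or 20 (0.45 or 0.52), or p2 mouse 3 or 18 (0.49 or 0.51). The complement list had 9 higher and 13 lower genes.

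Of 28 genes of insulin and insulin-like growth factor signalling, 0 were called, with 14 higher and 14 lower. Igfbp7, a secreted binding protein, had an unadjusted p under 0.05, at 9.50, 9.65 and 9.56 in the p2 mice and 9.86, 10.59 and 9.89 in the p1 mice (-0.54, SE 0.24). Of 43 cytoskeleton genes, 0 were called, with 20 higher and 23 lower. Gsn, gelsolin, which severs actin filaments and is abundant in oligodendrocytes, was at 8.10, 8.23 and 8.14 in the p2 mice and 8.72, 9.0 and 8.38 in the p1 mice (-0.54, SE 0.19). Of 42 hormone and hormone receptor genes, 1 fell (Lepr). Of 23 chemokines and receptors, 3 rose (0.715% of all probe sets did), and these were the Ccl21 copies Gm13304, Gm10591 and Ccl21b.

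Genes of neural signalling held 1 call among 119 genes (0.84%), near the share of all probe sets (1.29%). Among 5 glutamate receptor, 9 GABA and glycine receptor, 31 potassium channel, 13 sodium and calcium channel, 30 synaptic and 18 immediate early genes, 0 were called. Of 13 genes of acetylcholine receptors and handling, 1 fell, Chrnd, the delta subunit of the muscle nicotinic receptor, at 2.77, 2.28 and 2.65 in the p2 mice and 2.62, 3.54 and 3.66 in the p1 mice (-0.71, SE 0.26). These are low values, the groups overlapped, and the call was lost without p1 mouse 19 (-0.57), p1 mouse 20 (-0.51) or p2 mouse 8 (-0.56). The subunits of the α4β2 receptor, which the paper lists among the most widely expressed in the brain, were not called. Chrna4 differed by -0.17 (SE 0.38) and Chrnb2 by -0.03 (SE 0.18). The SE of Chrna4 exceeded its difference, so a larger change is not excluded. No value is given here for α7, which the paper lists beside α4β2. Of 21 neuropeptides, 0 were called and 17 were lower, with a median difference of -0.14 that was -0.085 without p2 mouse 3 and -0.215 without p2 mouse 8.

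Single genes of other roles were among the strongest calls. Lhx9, a LIM homeobox factor of the developing thalamus, was at 7.47, 7.51 and 7.44 in the p2 mice and 6.99, 6.39 and 6.59 in the p1 mice (0.82, SE 0.19). The other 10 measured thalamus genes held 0 calls, and the median of the list was 0.11. It was -0.03 without p1 mouse 20, 0.003 without p2 mouse 18 and 0.03 without p2 mouse 3. Fmo4, a flavin-containing monooxygenase, fell to 3.97, 4.16 and 4.33 in the p2 mice, against 4.74, 4.86 and 5.20 in the p1 mice (-0.78, SE 0.17). Cyp2j8, a cytochrome P450, rose to 5.07, 5.34 and 4.91 in the p2 mice, against 4.21, 4.18 and 4.59 in the p1 mice (0.78, SE 0.20). These were the 2 calls among 31 drug-metabolising enzymes (1.29% of all probe sets were called). The median difference of these enzymes was -0.02 (-0.07 to 0.04 with any one mouse left out).

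Tmem81, a transmembrane protein, was at 4.79, 5.24 and 5.33 in the p2 mice and 3.88, 4.51 and 4.24 in the p1 mice (0.91, SE 0.21). Tyw3, an enzyme that modifies the tRNA of phenylalanine, was at 5.49, 5.78 and 5.55 in the p2 mice and 4.97, 5.02 and 4.72 in the p1 mice (0.70, SE 0.17). The p3 mice had 6.15, 5.90 and 5.63 for Tyw3, so that all adult mice exceeded all young mice. Larp1b, a La-related RNA-binding protein, fell to 7.73, 7.80 and 8.18 in the p2 mice, against 8.43, 8.57 and 8.73 in the p1 mice (-0.67, SE 0.17). The p3 mice 2 and 6, at 8.47 and 8.61, lay within the range of the young mice, while p3 mouse 11, at 8.20, was near p2 mouse 18. Lhx9, Fmo4, Cyp2j8, Tmem81, Tyw3 and Larp1b stayed called under every alternative that tested them. Fmo4, Tmem81, Cyp2j8 and Tyw3 had mean levels of 4.59, 4.74, 4.96 and 5.47 over the 9 mice, so the level filters did not test them.

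Stoml3, a membrane protein that tunes mechanosensitive channels, rose to 7.58, 7.18 and 7.28 in the p2 mice, against 6.03, 7.01 and 6.49 in the p1 mice (0.84, SE 0.24). It stayed called without any single mouse, but not by the methods' t-test. Eng, endoglin, a co-receptor for TGF-beta in endothelium, rose to 8.19, 7.77 and 8.22 in the p2 mice, against 7.76, 7.30 and 7.32 in the p1 mice (0.60, SE 0.18). It was the 1 called gene of 19 endothelial genes (0.715% of all probe sets were called higher). Their median was 0 (-0.04 to 0.08 with any one mouse left out). The call of Eng was lost without p1 mouse 19 or 20 (0.52 or 0.53), or p2 mouse 3 or 18 (0.54 or 0.52). Bbox1, the last enzyme of carnitine synthesis, rose (0.75, SE 0.23) without overlap, and lost its call without p1 mouse 20 (0.55) or p2 mouse 8 (0.58).

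Antioxidant enzymes held 0 calls, but 21 of 27 were higher in p2, with a median difference of 0.08. In the p3 mice, of the same age as p2, the median difference from p1 was -0.05. Gstm1, a glutathione transferase, was at 16.02, 15.92 and 15.80 in the p2 mice and 15.83, 15.44 and 15.40 in the p1 mice (0.36, SE 0.15). Gstm4 was at 8.69, 8.34 and 8.69 in the p2 mice and 8.21, 8.13 and 7.76 in the p1 mice (0.54, SE 0.16). The Gstm genes are close relatives, so probes can be shared between them and their values may not be separate readings. All 7 measured Gstm genes were higher, with a median difference of 0.33. Ribosomal protein genes were higher in 14 of 17, by a median of 0.07 (0.04 to 0.08 with any one mouse left out). Their median difference from p1 was -0.07 in the p3 mice. Ciart, a repressor of the circadian clock, was at 8.60, 8.39 and 9.10 in the p2 mice and 8.31, 8.0 and 8.03 in the p1 mice (0.58, SE 0.20), just short of the fold. The time of day at dissection was not given in the sources used here.

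Olfactory receptor genes, whose main site of expression is the nose, gave a background for low values. Of 338 olfactory receptor genes, at a median level of 3.85, 5 were called (1.48%), all lower, with a median difference of -0.03. Lower calls made up 0.572% of all probe sets and 1.01% of the 2667 below a level of 6. Olfr342, the one of them that stayed called without any single mouse, was at 2.75, 2.76 and 3.38 in the p2 mice and 4.10, 4.07 and 3.30 in the p1 mice (-0.86, SE 0.28).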

How the data were processed

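Hippocampal RNA of 9 mice was read on Affymetrix Mouse Clariom S arrays, labelled with the GeneChip WT Plus kit. The authors normalized the arrays in the Transcriptome Analysis Console and deposited log2 values per probe set, with background correction, probe summary and build not given in the sources used here. Filled p2 values were set to missing. Groups came from the titles, and ages and the meaning of the suffix D from the study's text. One limma 3.58.1 model (R 4.3.3, lmFit and eBayes) was fitted over 9 mice and 22206 probe sets, and p2 minus p1 was read on 6291 probe sets with Benjamini-Hochberg adjustment over these. The fit was tested on simulated data. For the arrays the study names one-way ANOVA. The t-test stands in its general statistics. Of all probe sets, 19572 had 1 symbol, 0 several and 2634 none, and a gene was read from its probe set with the highest mean. Genes were named by rule: the 15 higher and 15 lower with the smallest p among calls without overlap, every called list gene, up to 4 of each list by p, and up to 3 abundant genes of each cell type. Others were named after their values were seen. Members and 52 lists were chosen with earlier results of these data known. The alternatives were other fits, scalings, level filters and fold thresholds, and leaving out each mouse. With 3 arrays per group, their number limits the precision.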

Additional observations from a re-analysis of the deposited data

How the results depend on the processing

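The count of 81 calls became 38 by the methods' t-test, 29 among probe sets above the median level, 36 at a log2 value of at least 6, 229 at a fold of 1.3 and 9 at a fold of 2. It was 117 to 136 without any one mouse and 143 with both p1 mouse 19 and p3 mouse 11 left out, which was tried after seeing the data. It was 54 in a one-way model without moderation, which is nearest to the ANOVA named for the arrays, and 81 to 93 in the other alternatives. Between 23 and 29 of the 81 calls were lost without any one mouse, and 21 (16 higher, 5 lower) were lost in none of these. The count at an adjusted p under 0.05 was 0 in every alternative. Of 39 genes called and named by the rule, 12 stayed called in every alternative that tested them at a fold of 1.5, and 0 of 237 genes reversed a called direction. The median of 52 lists moved by more than the spread between mice in 86 of 571 alternatives. These include p3 mice in place of p2 mice, which is another comparison of mice and not a change of processing. No paired analysis was run, since the p2 and p1 mice are separate animals of different ages. Dixon's test for an outlying sample was not run, and the deposited values do not give the signal over background that limits low levels.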
